A study of Mus musculus with 4 samples.

Results

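The nuclear genes of oxidative phosphorylation encode most subunits of the 5 enzyme complexes in the inner membrane of the mitochondrion. They were chosen by name alone: symbols that start with Nduf, a letter a, b, c, s or v and a digit, the symbols Sdha to Sdhd, and symbols that start with Uqcr, Cox4 to Cox8 or Atp5, with pseudogene names left out. This gave 81 genes of the 23162 genes and transcript clusters that had a count: 36 of complex I, 4 of complex II, 8 of complex III, 16 of complex IV and 17 of complex V. Of these, 79 had enough counts for the test, and Cox7a1 and Cox7b2 did not. A further 8 Ensembl genes fit the rule by name but had no count assigned to them. Among them were Cox7a2, Cox8c, Ndufb4 and a second gene entry that also carries the name Atp5o. Ndufa4 stands under complex I by its name, although the protein is known as a subunit of complex IV.

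The tissue was whole forelimb or hindlimb of CD1 mouse embryos, an outbred stock, at E14.5, a stage when the muscles, cartilage models and joints of the limb take shape. The labels name no mutant allele and no treatment. There were 2 biological replicates of each limb type, and the labels do not state how many embryos made up a sample or whether equal replicate numbers mean the same embryos. The assay was DGE-SAGE, in which cDNA is cut by NlaIII at CATG and the 17 bases that follow a cut are sequenced and counted as a tag, so that a transcript is measured by short tags and not along its length.

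In oxidative phosphorylation, complex I takes electrons from NADH and complex II from succinate, ubiquinone carries them to complex III, cytochrome c carries them on to complex IV, and oxygen receives them there. Complexes I, III and IV pump protons out of the matrix, and complex V, the ATP synthase, lets them return and makes ATP. Some subunits exist as paired isoforms, one of them used mainly in heart and skeletal muscle.

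A member usually had several tags, and the tags of a transcript often disagreed. A pair of tags is shown for each of 3 members whose tags lie in the same transcript and moved in opposite directions between limb types. G and C are in capitals, because base composition is set beside the limb-type ratios below. Each tag matches 1 gene of GENCODE M21, and the positions are on GRCm38.
Atp5c1, GC-poor tag: aGCatCtatGatGaCat
Atp5c1, GC-rich tag: GaCaaCGCCaGCaaGaa
Uqcrfs1, GC-poor tag: atttaGatCGaGtaaaG
Uqcrfs1, GC-rich tag: GGtCaCaCtatGaCGCC
Uqcrq, GC-poor tag: tatGaaaatGaCaaGta
Uqcrq, GC-rich tag: GGGCaaCCaGGaGtttG
The Atp5c1 tags are in coding sequence at chr2:10059632-10059648 and chr2:10059506-10059522, both on the minus strand. Uqcrfs1 has its tags in coding sequence at chr13:30540938-30540954 and chr13:30540821-30540837, minus strand. For Uqcrq they are in coding sequence at chr11:53429057-53429073 and chr11:53429103-53429119, minus strand. The tags of a pair thus differ in place as well. The GC-rich tag is nearer the 3′ end in Atp5c1 and Uqcrfs1, and the GC-poor tag is in Uqcrq. The part of place in the ratios was not tested.

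The next 4 tags are the most counted tags of members that differed between limb types as whole genes. They show the same contrast in base composition between genes.
Atp5g1: CCaGtCCtGGtGCtGGa
Ndufa3: CCtGatGtGCCCaGCCa
Ndufs1: aGtCtGaatGatGtaat
Atp5j: tGGtaatttGtCatGaa
The Atp5g1 tag (3′ UTR, chr11:96073042-96073058, minus strand) and the Ndufa3 tag (coding sequence, chr7:3620027-3620043, plus strand) have 64.7% G or C. The Ndufs1 tag (3′ UTR, chr1:63143732-63143748, minus strand) and the Atp5j tag (3′ UTR, chr16:84827922-84827938, minus strand) have 29.4%.

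The libraries held 1829647 to 5325279 tags, the fewest in forelimb replicate 2, and 81.3% to 85.2% of these carried a gene or cluster. Levels are in CPM, counts per unit of library size, scaled by TMM. A single count equalled 0.621 CPM in the smallest library and from 0.224 to 0.256 CPM in the others. Mean tag GC was 40.6% and 40.2% in the forelimb replicates and 46.3% and 50.4% in the hindlimb replicates, so that base composition of a library and limb type cannot be told apart. Limb identity genes followed the labels: Tbx5 was at 18.4 and 14.9 CPM in forelimb and at 0.894 and 1.52 CPM in hindlimb, while Pitx1 was at 3.33 and 1.24 CPM in forelimb and at 254 and 305 CPM in hindlimb. All 10 cartilage and all 16 skeletal muscle markers had counts. No molecular identifiers marked the amplified tags, so the intervals given for shares and ratios cover counting error only.

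The summed level of the 81 genes was nearly the same in both limb types. It was 19409 and 18115 CPM in the forelimb replicates and 17536 and 19192 CPM in the hindlimb replicates, which is a log2 ratio of -0.031 for hindlimb over forelimb against a spread between replicates of 0.082 (SD, log2). The forelimb and hindlimb ranges overlapped. The genes held 1.91% and 1.87% of the assigned counts in forelimb and 1.81% and 1.78% in hindlimb.

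Complex V had the highest sum, with 7352.5 and 7217 CPM in forelimb and 7054 and 8071 CPM in hindlimb. Complex I followed at 5250.4, 4899, 4727 and 5427 CPM, in the order forelimb 1, forelimb 2, hindlimb 1 and hindlimb 2. For complex III the sums were 2067, 1861, 1873 and 2404 CPM. The limb types overlapped in these 3 complexes, with log2 ratios of 0.054, 0.00072 and 0.12.

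Complex IV stood at 3873 and 3423 CPM in forelimb and at 3185 and 2659 CPM in hindlimb, a log2 ratio of -0.32, and both hindlimb libraries were below both forelimb libraries. The same order held for complex II, at 866 and 715 CPM in forelimb and 697 and 632 CPM in hindlimb, a log2 ratio of -0.25. The spread between replicates was 0.16 (SD, log2) for each of these 2 complexes. Leaving out 1 library at a time, the log2 ratio of complex IV ran from -0.47 (without hindlimb replicate 1) to -0.18 (without hindlimb replicate 2) and that of complex II from -0.39 (without forelimb replicate 2) to -0.10 (without forelimb replicate 1). That of complex III ran from -0.054 to 0.28, the lowest without hindlimb replicate 2 and the highest without hindlimb replicate 1. With offsets for base composition, explained below, complex IV was at -0.13 (GC) and 0.029 (tag sequence), and complex II at -0.29 and -0.071. Complexes I, III and V were at -0.18, -0.066 and -0.12 with the GC offset and at 0.043, 0.15 and 0.059 with the tag-sequence offset.

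**Figure D1:**
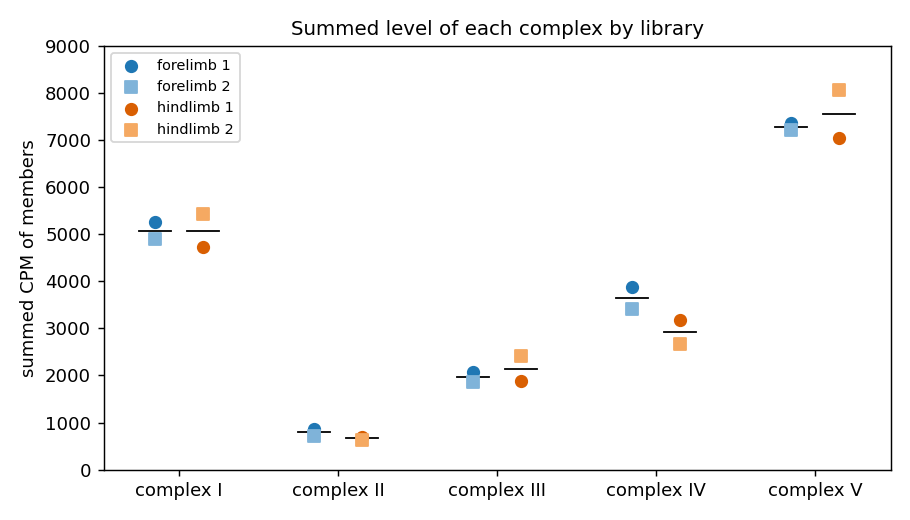
Summed CPM of the members of each complex (y axis) in the 4 libraries (points), with the mean of each limb type as a line. Complexes I, III and V overlap between limb types, while complexes II and IV are lower in both hindlimb libraries.

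Single members differed in both directions. In the edgeR quasi-likelihood test over 13718 genes, 12 of 79 tested members were higher in hindlimb at an adjusted p under 0.05, which is 15.2% against 9.58% of all genes tested. Another 10 were higher in forelimb, 12.7% against 7.08% of all genes, and 57 did not pass the test. In either direction that is 22 members, where 16.7% of all genes were called, and 35 members had an unadjusted p under 0.05. The libraries of the limb types did not overlap in 31 members with hindlimb higher and in 29 with forelimb higher, and each of these orders was found in 31.4% of all genes. Without forelimb replicate 1 the calls were 5 and 5, without forelimb replicate 2 they were 5 and 3, without hindlimb replicate 2 they were 5 and 7, and without hindlimb replicate 1 they were 17 and 17. The calls of 5 members, Ndufs1, Atp5j, Atp5g1, Atp5j2 and Atp5k, passed without any 1 of the 4 libraries. The median log2 fold change of the members was 0.09, beside -0.029 over all genes tested.

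The calls depended on how the base composition of the tags was treated. With an offset for the GC of each gene's tags, 3 members were higher in hindlimb, where 2.87% of all genes were, and 9 were higher in forelimb, where 3.14% were (6.01% in either direction). Of the 22 calls 6 remained, 2 turned direction and 6 other members were called. These others were Cox5b (-1.10), Ndufb2 (-0.98) and Atp5o (-1.01), lower in hindlimb, and Ndufb9 (0.89), Ndufa4 (1.33) and Atp5h (0.99), higher in hindlimb. With the tag-sequence offset, which learns the effect of sequence by comparing tags within genes, edgeR called 0 members in either direction (0.0875% and 0.0656% of all genes, 0.153% in all), and 8 members had an unadjusted p under 0.05. The standard deviation of the members' log2 fold changes was 1.05 without an offset, 0.64 with the GC offset and 0.39 with the tag-sequence offset, beside 1.16, 0.90 and 0.71 over all genes. Values with these offsets are given with the called members and where they turn or change another result.

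**Figure D2:**
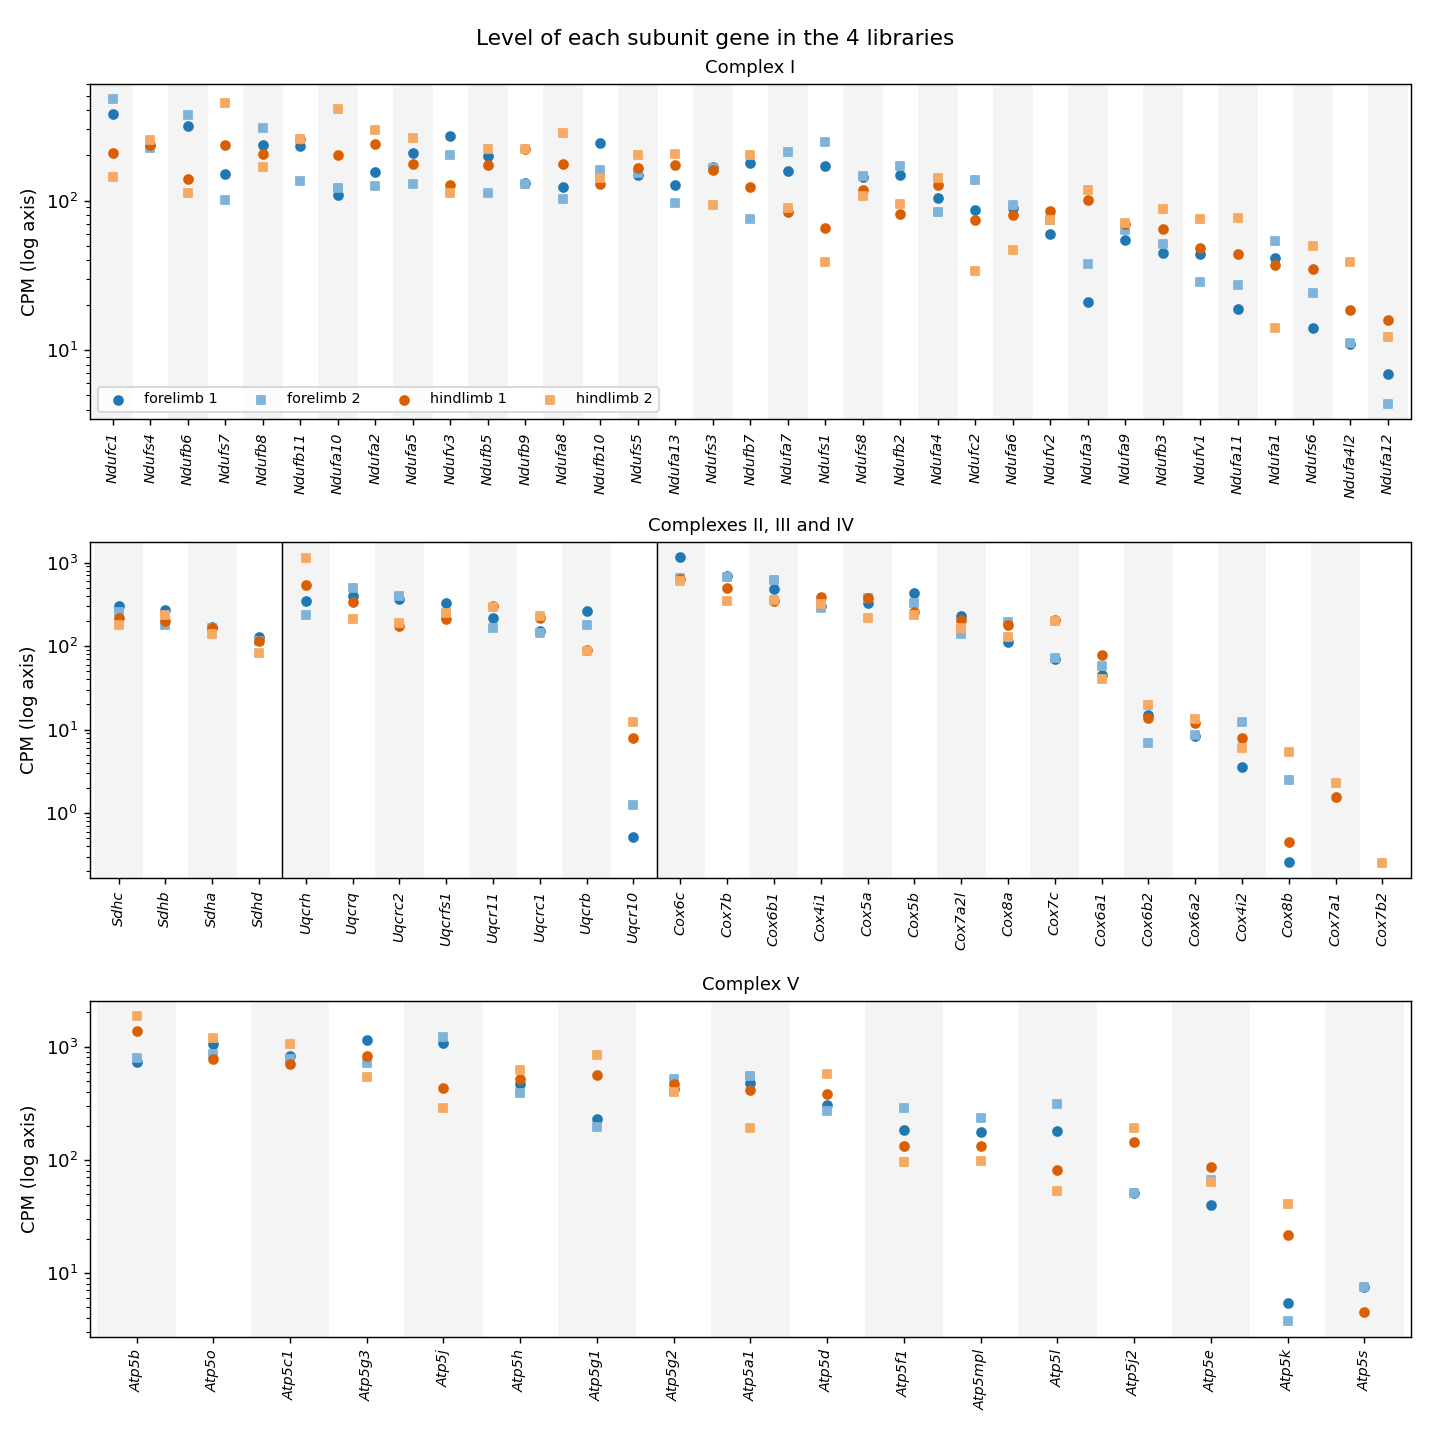
CPM of each member (log axis) in the 4 libraries, by complex and ordered by mean CPM; 1 member of complex I is left out, and a library at 0 is not drawn (Cox7a1 in forelimb, Cox7b2 outside hindlimb 2 and Atp5s in hindlimb 2). Atp5g1, Atp5j2, Cox7c and Ndufa3 have both hindlimb libraries above forelimb, and Atp5j, Ndufs1 and Atp5l have both below.

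In complex I, 5 of 36 members passed the test as higher in hindlimb, 5 as higher in forelimb and 26 not at all. Ndufs1, which carries iron-sulfur clusters in the NADH-oxidizing part, had the lowest hindlimb to forelimb ratio of the complex. Its level was 171 and 246 CPM in the forelimb replicates and 66.0 and 38.5 CPM in the hindlimb replicates. Both hindlimb libraries were far below both forelimb libraries, with a log2 fold change of -1.99 (SE 0.36, edgeR adjusted p = 0.00215). The value was -1.27 with the GC offset (adjusted p = 0.0124) and -0.55 (SE 0.26) with the tag-sequence offset (adjusted p = 0.511).

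Ndufa3, an accessory subunit of the membrane arm, had the highest ratio of complex I. It stood at 21 and 37.9 CPM in forelimb and at 101 and 118 CPM in hindlimb. The groups were well apart, at a log2 fold change of 1.93 (SE 0.37, edgeR adjusted p = 0.00305). Its direction turned with the tag-sequence offset, to -0.14 (SE 0.28, adjusted p = 0.918), and the GC offset gave 0.74 (adjusted p = 0.178). The GC-rich tag printed above held most of this, with 13.6 and 16.2 CPM in forelimb and 91.4 and 109.8 CPM in hindlimb.

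Ndufs7, the core subunit that holds the last iron-sulfur cluster before ubiquinone, was at 149.8 and 100.03 CPM in forelimb and at 235 and 447 CPM in hindlimb (log2 fold change of 1.44 with SE 0.36, edgeR adjusted p = 0.0123). Ndufa10 was at 109 and 121 CPM in forelimb and at 203 and 409 CPM in hindlimb (1.41, SE 0.35, adjusted p = 0.0126). For both, hindlimb replicate 2 was the highest library by a wide margin. Ndufa8, which faces the intermembrane space, changed by 1.02 (adjusted p = 0.0426) and Ndufa11, an accessory subunit of the membrane arm, by 1.39 (adjusted p = 0.0248). With the GC offset the values of Ndufs7, Ndufa10, Ndufa8 and Ndufa11 were 0.014, 0.19, -0.27 and -0.54, and with the tag-sequence offset they were 0.44, 0.24, 0.37 and -0.14, none of them past the threshold.

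Of the other 4 members higher in forelimb, Ndufb6, an accessory subunit of the membrane arm, had 317 and 375 CPM in forelimb and 140.0 and 113 CPM in hindlimb (log2 fold change -1.45, edgeR adjusted p = 0.00564). Ndufc1, also of the membrane arm, had 376 and 478 CPM in forelimb and 209 and 143 CPM in hindlimb (-1.28, adjusted p = 0.0134). Ndufa7, an accessory subunit of the matrix arm, followed at -1.09 (adjusted p = 0.0272) and Ndufv3, an accessory subunit of the NADH-oxidizing part, at -0.99 (adjusted p = 0.0393). In each of these 4 genes both hindlimb libraries were below both forelimb libraries. Ndufb6, Ndufa7 and Ndufv3 remained past the threshold with the GC offset, at -1.25, -1.21 and -1.01, and Ndufc1 did not, at -0.80 (adjusted p = 0.0598). The tag-sequence offset brought Ndufb6 to -0.040, Ndufc1 to -0.091, Ndufa7 to -0.38 and Ndufv3 to -0.10.

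Ndufc1 was also the complex I member with the highest mean level. Ndufs4, an accessory subunit needed for a stable complex, was at 236 and 226 CPM in forelimb and at 236 and 256 CPM in hindlimb (log2 fold change of 0.09 with SE 0.30, edgeR adjusted p = 0.866), with 0.43 and 0.28 under the offsets. The 36 members ranged in mean level from 9.83 CPM (Ndufa12) to 302 CPM (Ndufc1).

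None of the 4 members of complex II, succinate dehydrogenase, passed the edgeR test, and none had an unadjusted p under 0.05. Sdha, the flavoprotein that oxidizes succinate, was at 170.3 and 163 CPM in forelimb and at 163 and 138 CPM in hindlimb (log2 fold change of -0.15 with SE 0.31). Sdhb, the iron-sulfur subunit, was at 269 and 179.6 CPM in forelimb and at 201 and 233 CPM in hindlimb (-0.051, SE 0.32), and the limb types overlapped. Sdhc, a membrane anchor, was at 298 and 257 CPM in forelimb and at 217 and 178 CPM in hindlimb (-0.49, SE 0.31, adjusted p = 0.285), and both hindlimb libraries were lower. Sdha, Sdhb and Sdhc had 0.14, -0.63 and -0.40 with the GC offset, and with the tag-sequence offset -0.31, -0.11 and 0.027.

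In complex III, which passes electrons from ubiquinol to cytochrome c, 2 of 8 members were higher in hindlimb and 2 were higher in forelimb. Uqcrh, the hinge protein at the cytochrome c site and the member with the highest mean of the complex, was at 346 and 238 CPM in forelimb and at 538 and 1123 CPM in hindlimb (log2 fold change of 1.504 with SE 0.37, edgeR adjusted p = 0.0111). Its 2 hindlimb libraries were themselves far apart. Tags shared with other genes held 55.02% of its counts. Uqcr10, a small subunit, had 2 and 2 counts in forelimb and 35 and 49 in hindlimb, a 13.8-fold ratio with a 95% counting interval from 5.18 to 51.7 (exact). Its fitted log2 fold change was 3.66 (SE 0.92, adjusted p = 0.0131) and was -0.030 (SE 0.98) with the tag-sequence offset.

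Uqcrb, a small subunit named for ubiquinone binding, was at 261 and 178 CPM in forelimb and at 88.8 and 86.7 CPM in hindlimb (log2 fold change of -1.33 with SE 0.32, edgeR adjusted p = 0.0106). All its counts were in tags that match several genes. Uqcrc2, a core protein, was at 363 and 400.1 CPM in forelimb and at 173 and 190.4 CPM in hindlimb (-1.07, SE 0.31, adjusted p = 0.0243). With the GC offset, Uqcrh, Uqcr10, Uqcrb and Uqcrc2 had 0.29, 1.92, -0.28 and -0.59, none past the threshold, and with the tag-sequence offset Uqcrh, Uqcrb and Uqcrc2 had 0.23, 0.076 and 0.14. Uqcrq, with 398 and 500.2 CPM in forelimb and 338 and 212 CPM in hindlimb, did not pass the test (-0.71, adjusted p = 0.143, and -0.12 with the GC offset).

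Complex IV, cytochrome c oxidase, had a single call among its 14 tested members. Cox7c was at 70.7 and 72.7 CPM in forelimb and at 204 and 197 CPM in hindlimb, with replicates of each limb type close together (log2 fold change of 1.48 with SE 0.31, edgeR adjusted p = 0.00504). All its counts were in tags that match several genes. With the GC offset the value was 0.58 (adjusted p = 0.195), and 0.061 came with the tag-sequence offset (adjusted p = 0.958). Without an offset no member was called higher in forelimb, and 2 of the 14, in either direction, had an unadjusted p under 0.05. With the GC offset 5 had such a p, and Cox5b was called higher in forelimb, at -1.10 (edgeR adjusted p = 0.0203). The tag-sequence offset gave -0.11 for Cox5b (adjusted p = 0.902).

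The most abundant members of complex IV were lower in both hindlimb libraries, without passing the edgeR test. Cox6c, like the next 2 a small subunit around the catalytic core, was at 1150.3 and 649 CPM in forelimb and at 627 and 596 CPM in hindlimb (log2 fold change of -0.56 with SE 0.33). Cox7b, on the X chromosome, was at 698 and 677 CPM in forelimb and at 496 and 350.4 CPM in hindlimb (-0.70, SE 0.31). Cox6b1 was at 485 and 615 CPM in forelimb and at 351 and 360.0 CPM in hindlimb (-0.63, SE 0.31). The adjusted p of these 3 genes lay between 0.132 and 0.259. Their values were -0.27, -0.038 and -0.53 with the GC offset and 0.50, -0.27 and -0.071 with the tag-sequence offset, and none passed the threshold. Cox6b2, a paralog of Cox6b1, was at 15.1 and 6.83 CPM in forelimb and at 13.6 and 19.5 CPM in hindlimb (0.53, SE 0.50). Cox7a2l was at 229 and 138 CPM in forelimb and at 202 and 165 CPM in hindlimb (-0.0064, SE 0.33). Cox8a was at 113 and 193 CPM in forelimb and at 181 and 129 CPM in hindlimb (0.025, SE 0.34). The limb types overlapped in each. The GC offset gave -0.42, 0.18 and -0.22, and the tag-sequence offset 0.55, -0.44 and -0.27.

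In complex V, 4 of 17 members were higher in hindlimb and 3 were higher in forelimb. Atp5b, the catalytic beta subunit and the member with the highest mean of all 81, was at 733 and 790.3 CPM in forelimb and at 1371 and 1858 CPM in hindlimb (log2 fold change of 1.08 with SE 0.32, edgeR adjusted p = 0.0273). Atp5j2, a small membrane subunit, was at 51.2 and 50.3 CPM in forelimb and at 142 and 192 CPM in hindlimb (1.72, SE 0.33, adjusted p = 0.00306). Atp5k, a small membrane subunit of the dimer interface, was at 5.38 and 3.73 CPM in forelimb and at 21.5 and 40.8 CPM in hindlimb (2.71, SE 0.51, adjusted p = 0.00293). The hindlimb libraries were above the forelimb libraries in each of the 3. With the GC offset their values were 0.23, 0.49 and 1.21, and with the tag-sequence offset 0.056, 0.13 and 0.35, none past the threshold.

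Atp5j, a peripheral stalk subunit, was at 1079 and 1203 CPM in forelimb and at 429 and 287 CPM in hindlimb (log2 fold change of -1.67 with SE 0.33, edgeR adjusted p = 0.00329). Its direction turned with the tag-sequence offset, to 0.47 (SE 0.21, adjusted p = 0.492), and the GC offset gave -0.89 (adjusted p = 0.0373). Atp5l, a small membrane subunit, was at 180.3 and 312 CPM in forelimb and at 81.2 and 52.5 CPM in hindlimb (-1.87, SE 0.36, adjusted p = 0.00299). Its values with the GC and tag-sequence offsets were -1.63 (adjusted p = 0.00673) and -0.37 (adjusted p = 0.635). Atp5f1, the b subunit of the peripheral stalk, was at 181 and 283 CPM in forelimb and at 132 and 94.6 CPM in hindlimb (-1.03, SE 0.34, adjusted p = 0.0433), with -0.80 and 0.031 under the offsets. Of the counts of Atp5l 95.7% and of those of Atp5f1 nearly all were in tags that match several genes.

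Atp5o, which joins the catalytic head to the peripheral stalk, and Atp5c1, the gamma subunit of the rotor, had the next highest levels of complex V. Atp5o was at 1049 and 854 CPM in forelimb and at 782 and 1178 CPM in hindlimb (log2 fold change of 0.042 with SE 0.32). Atp5c1 was at 819 and 779 CPM in forelimb and at 700.2 and 1056 CPM in hindlimb (0.14, SE 0.32). In both genes the hindlimb replicates enclosed the forelimb ones. The GC offset alone called Atp5o lower in hindlimb, at -1.01 (edgeR adjusted p = 0.025), and the tag-sequence offset gave -0.13 (adjusted p = 0.887). Atp5c1 had 0.080 and 0.40 under the offsets, and neither value passed.

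Subunit c, which forms the rotating ring of the ATP synthase, is encoded by 3 genes whose mature proteins are identical. Their sum was 1785 and 1429 CPM in forelimb and 1861 and 1773 CPM in hindlimb, a log2 ratio of 0.18. The share of each gene in that sum differed more. Atp5g1 gave 12.8% (95% Wilson interval 11.99% to 13.6%) and 13.7% (12.4% to 15.2%) of the counts in the forelimb replicates, and 30.2% (29.2% to 31.2%) and 47.1% (46.0% to 48.3%) in the hindlimb replicates. Atp5g3 gave 63.5% and 50.3% in forelimb and 44.6% and 30.6% in hindlimb, and Atp5g2 gave 23.7%, 36.0%, 25.2% and 22.3%.

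As a gene, Atp5g1 was at 228 and 196 CPM in forelimb and at 562 and 835 CPM in hindlimb (log2 fold change of 1.72 with SE 0.33, edgeR adjusted p = 0.00294). Neither Atp5g2 (-0.12, SE 0.31) nor Atp5g3 (-0.43, SE 0.34) passed the test. The tags of Atp5g1 had 63.7% G or C, those of Atp5g2 48.4% and those of Atp5g3 27.9%. The 3 genes had 0.42 (adjusted p = 0.307), -0.27 and 0.39 with the GC offset. Log2 fold changes with the tag-sequence offset were -0.48 (adjusted p = 0.444), -0.25 and 0.28, with the 3 genes in reverse order. The most counted Atp5g1 tag, printed above, had a log2 ratio of 3.22, while a second tag of the gene with 70.6% G or C was at 0.25, so the whole-gene difference rested on 1 tag.

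**Figure D3:**
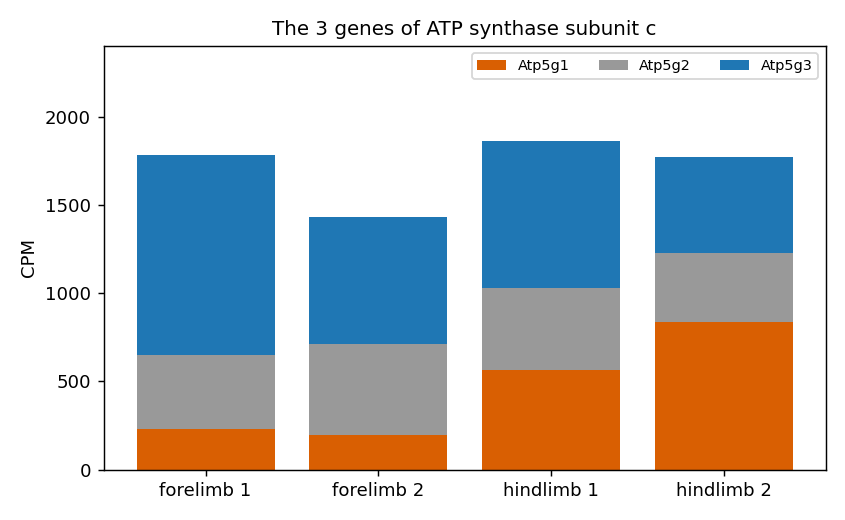
CPM of Atp5g1, Atp5g2 and Atp5g3 (stacked bars) in the 4 libraries. The sum lies between 1429 and 1861 CPM, and the part of Atp5g1 is larger in both hindlimb libraries.

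Isoforms of complex IV known from heart and skeletal muscle were low in all libraries. Cox6a2 was at 8.45 and 8.70 CPM in forelimb and at 11.8 and 13.4 CPM in hindlimb, beside 39.8 to 79.1 CPM for its ubiquitous partner Cox6a1. Without an offset Cox6a2 had a log2 fold change of 0.56 with SE 0.53 (edgeR adjusted p = 0.497), which turned to -1.18 with the GC offset (adjusted p = 0.175) and to -1.73 with the tag-sequence offset (adjusted p = 0.227, unadjusted p = 0.0029), the lowest tag-sequence value among the members. It made up 15.9% (95% Wilson interval 11.5% to 21.4%) and 13.1% (8.0% to 20.8%) of the pair in forelimb and 13.0% (10.1% to 16.6%) and 25.2% (19.8% to 31.5%) in hindlimb, and the limb types overlapped. Cox8b had 1 and 4 counts in forelimb and 2 and 21 in hindlimb, at most 3.95% of the counts of Cox8a and Cox8b together. Cox7a1 had 0 counts in both forelimb libraries and 7 and 9 in hindlimb. That is a 3.49-fold difference when 3 counts over the group are taken as the forelimb floor. These counts rested on 1 tag with 70.6% G or C, and the gene was not tested and has no fitted value with an offset. Tested genes with 65% G or C and over in their tags had a median log2 fold change of 1.76. The upper 95% Wilson limits of the Cox7a1 share in the forelimb replicates were 0.43% and 1.70% of the counts of Cox7a1 and Cox7a2l. Cox7a2 had no count assigned to it and is missing from that sum.

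The low-oxygen isoforms were a minor part as well. Cox4i2 held 1.18% and 4.13% of the Cox4i counts in forelimb and 2.01% and 1.85% in hindlimb. Its partner Cox4i1 was at 301 and 288 CPM in forelimb and at 382 and 322 CPM in hindlimb (log2 fold change of 0.26 with SE 0.30, edgeR adjusted p = 0.602), with 0.80 (adjusted p = 0.0526) and 0.074 under the offsets. Ndufa4l2, a paralog of Ndufa4 known to be induced in low oxygen, was at 11.01 and 11.2 CPM in forelimb and at 18.6 and 39.0 CPM in hindlimb (1.37, SE 0.47, adjusted p = 0.052), and the value was 0.12 with the tag-sequence offset. Ndufa4 was at 104 and 83.9 CPM in forelimb and at 128 and 141 CPM in hindlimb (0.51, adjusted p = 0.278). The GC offset, applied to tags with only 29.9% G or C, brought Ndufa4 to 1.33 (adjusted p = 0.0152), and the tag-sequence offset brought it to -0.064.

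The direction of a member followed the GC of its tags, which the choice by name did not use. The 12 members called higher in hindlimb had tags with 57.6% to 72.2% G or C (median 63.2%). The 10 called higher in forelimb had 23.5% to 47.9% (median 39.4%), and the ranges did not meet. Over 79 members, log2 fold change and GC had a Pearson r of 0.77 and a Spearman rho of 0.80, and over the 13718 genes r was 0.64. These points share the same 4 libraries. With the GC offset r over the members was 0.11 and with the tag-sequence offset it was 0.087, beside 0.067 and 0.017 over all genes. The GC offset is fitted on this same relation, so a low r after it was fixed in advance. The tag-sequence offset models GC too, learned from tags within genes.

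Within a class of GC the members lay near other genes. Among genes under 35% G or C, the median log2 fold change was -0.81 for 12 members and -0.82 for 2736 genes. Between 35% and 45% it was -0.49 for 19 members and -0.35 for 4155 genes, and between 45% and 55% it was 0.14 for 25 members and 0.24 for 4005 genes. From 55% to 65% it was 1.08 for 17 members and 1.01 for 2295 genes. At 65% and over it was 1.42 for 6 members and 1.76 for 527 genes. The members' counts had 41.3% and 41.4% G or C in the forelimb libraries and 47.7% and 52.3% in the hindlimb libraries.

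**Figure D4:**
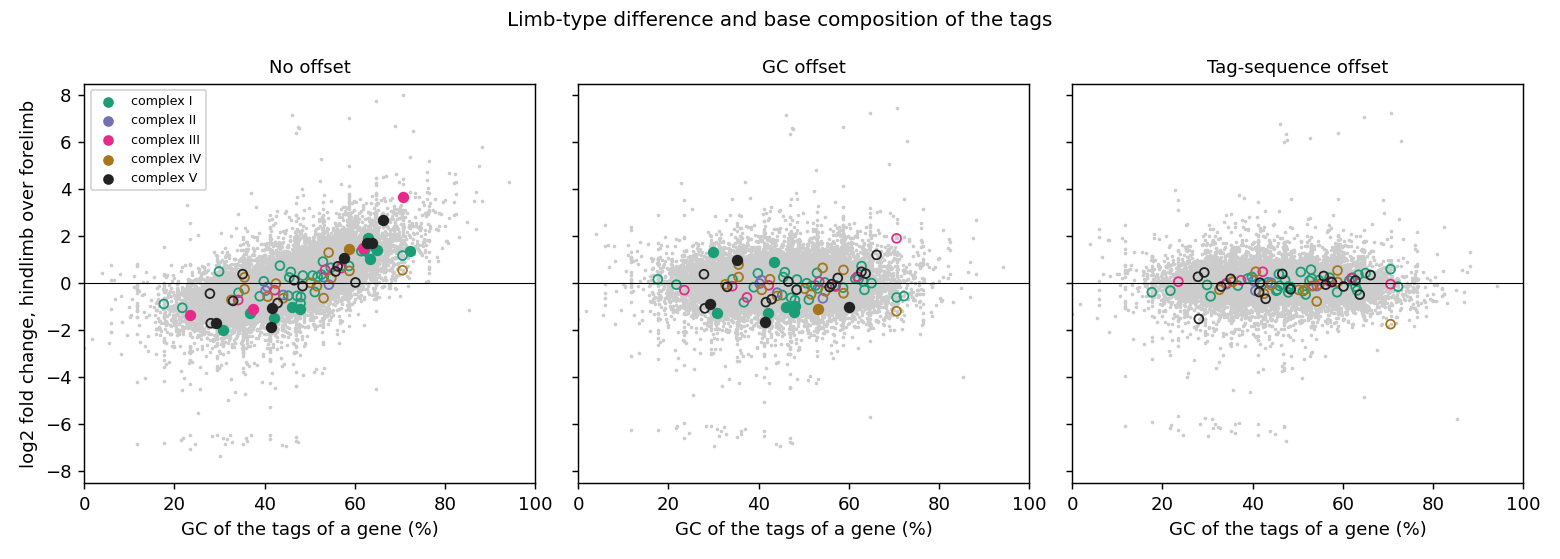
Log2 fold change, hindlimb over forelimb (y axis), against the GC of a gene's tags (x axis, %) with no offset, the GC offset and the tag-sequence offset; grey points are all 13718 tested genes, coloured circles the 79 tested members, filled where the adjusted p is under 0.05. Filled circles lie above 0 at high GC and below 0 at low GC in the first panel, and none is filled in the third.

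Tags of the same member repeated this pattern. For 64 members the 2 most counted tags had at least 100 counts each, and in 57 of these the tags differed in GC. The GC-richer tag had the higher hindlimb to forelimb ratio in 41 of the 57, in 24 of the 27 pairs that differed by at least 15 percentage points, and in 40 of the 54 pairs with both tags in 1 annotated transcript. In 30 pairs the tags moved in opposite directions, and in 25 of those the GC-poor tag was lower and the GC-rich tag higher in hindlimb. The median difference in log2 ratio was 1.31, from -2.97 in Atp5g1 to 4.91 in Ndufb8, a member most of whose counts match several genes.

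The pairs printed above give this in single transcripts. The GC-poor tag of Atp5c1 (35.3% G or C) had 440.5 and 473 CPM in forelimb and 138 and 100.4 CPM in hindlimb, a log2 ratio of -1.93. The GC-rich tag of the same gene (52.9%) had 321 and 233 CPM in forelimb and 500.1 and 905 CPM in hindlimb, a log2 ratio of 1.34. Both tags lie in coding sequence, yet 1 was lower and the other higher in both hindlimb libraries than in both forelimb libraries, beside 0.14 for the whole gene.

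In Uqcrfs1, the Rieske iron-sulfur protein of complex III, the tag with 29.4% had 208 and 134 CPM in forelimb and 70.0 and 46.1 CPM in hindlimb. Its tag with 58.8% had 70.4 and 52.2 CPM against 64.6 and 134 CPM (-1.55 and 0.69), where the limb types overlapped. Uqcrq had -1.20 for the tag with 23.5% and 0.49 for the tag with 58.8%.

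**Figure D5:**
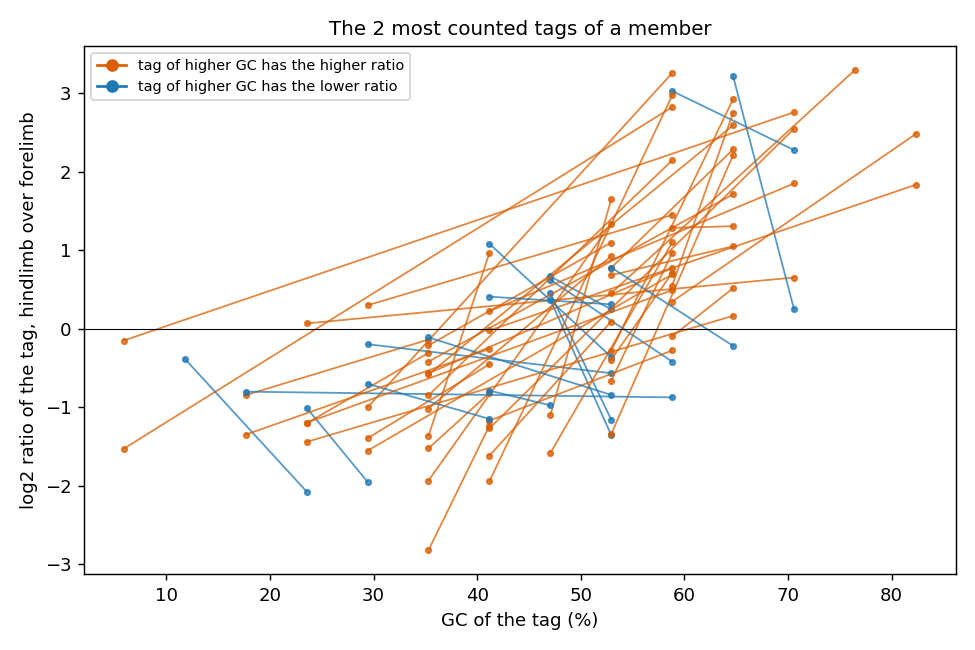
The 2 most counted tags of each of 57 members whose tags differ in GC, joined by a line: log2 ratio of hindlimb over forelimb (y axis) against the GC of the tag (x axis, %). Orange lines rise with GC (41 members) and blue lines fall.

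Of the members' counts, 16.9% were in tags that match several genes and 2.29% in tags that match no M21 transcript. In 12 members more than 50% of the counts were in tags of several genes, and their values are uncertain for that reason: Ndufb8, Ndufb2, Ndufs6, Ndufa12, Uqcrh, Uqcrb, Cox5b, Cox7c, Atp5h, Atp5g2, Atp5f1 and Atp5l. With tags of 1 gene only, 16 of the 22 calls remained and 3 called members had no such value. Of 202 member tags with at least 100 counts that could be placed, 133 lay in coding sequence and 60 in a 3′ UTR. At the last CATG site of the transcript used for placing were 80 of the 202. The part of the site in the tag ratios was not tested.

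Genes around the complexes that the choice by name leaves out were read from the same fit. The list of electron carriers and adenine nucleotide exchange also held Slc25a3, the Vdac channels, Atpif1, Ckmt1 and Ndufab1. Of its 14 tested genes, 2 were higher in hindlimb, Cyc1 (log2 fold change 1.42) and Etfa (1.42), beside 9.58% of all genes. The edgeR test called 0 higher in forelimb, beside 7.08% of all genes, and 6 genes had an unadjusted p under 0.05. Cyc1 encodes cytochrome c1, itself a subunit of complex III, as Ndufab1 of the same list is of complex I. Cyc1 was at 238 and 250.4 CPM in forelimb and at 465 and 840.2 CPM in hindlimb. With the GC and tag-sequence offsets Cyc1 had 0.22 and -0.25, and Etfa had 0.90 and 0.57. Of 39 tested assembly factors 5 were higher in hindlimb and 2 in forelimb, beside 9.58% and 7.08% of all genes. Among them were Cox14 (2.13), which acts in the assembly of complex IV, and Sdhaf3 (-2.52), which acts in that of complex II. Under the offsets Cox14 had 1.61 (adjusted p = 0.0050, GC) and 0.22, and Sdhaf3 had -1.50 (adjusted p = 0.039, GC) and -0.28. The medians of the 2 lists were 0.32 and -0.39, beside -0.029 for all genes.

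Of 11 tested regulators of mitochondrial biogenesis 2 were higher in hindlimb, Esrra (1.60) and Polrmt (1.24), and 2 in forelimb, Gabpa (-0.98) and Yy1 (-1.48). The shares over all genes were again 9.58% and 7.08%. Polrmt is the RNA polymerase of mitochondria, and the others are transcription factors. Of 18 tested genes of the tricarboxylic acid cycle and pyruvate dehydrogenase 3 were higher in hindlimb, Suclg1 (1.55), Suclg2 (1.13) and Pdhb (1.35), and 0 in forelimb, with 8 at an unadjusted p under 0.05. Esrra had 73.3% G or C in its tags, and Yy1 had 23.4%. With the GC offset Esrra, Polrmt, Gabpa and Yy1 had -0.42, 0.19, -0.16 and -0.59. The tag-sequence offset gave -0.091, 0.93, -0.014 and -0.50 in the same order. Suclg1, Suclg2 and Pdhb had 0.35, 0.81 and -0.046 with the GC offset, and -0.37, 1.05 and -0.25 with the tag-sequence offset. None of these values passed the threshold. With the tag-sequence offset edgeR called 0 genes of these 4 lists, with 4, 2, 1 and 2 genes at an unadjusted p under 0.05, and the medians were 0.21, 0.11, -0.014 and -0.013.

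Markers of other cell types in the limb were measured beside the members. Skeletal muscle markers summed to 8231 and 7208 CPM in forelimb and to 3310 and 3327 CPM in hindlimb. Of the 16, 7 were higher in forelimb and 0 in hindlimb by edgeR, beside 7.08% and 9.58% of all genes. An unadjusted p under 0.05 was found in 7. Under the tag-sequence offset 15 of 16 were below 0 (median -0.84), and 2 were called higher in forelimb. In the same libraries the summed level of the oxidative phosphorylation genes had a log2 ratio of -0.031. The log2 ratio was -0.25 for complex II and -0.32 for complex IV, and 0.00072, 0.12 and 0.054 for complexes I, III and V. The part of muscle in these sums was not tested. In whole limbs, fewer cells of a type and less RNA per cell cannot be told apart.

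Calls in the other marker lists are given as higher in hindlimb and higher in forelimb, beside 9.58% and 7.08% of all genes: cartilage 2 and 1 of 10, endothelium 2 and 1 of 8, epidermis 3 and 2 of 9, erythroid cells 1 and 1 of 6, macrophages 0 and 1 of 6, and nerve 0 and 1 of 7. At an unadjusted p under 0.05 there were 3 genes for cartilage, 5 for endothelium, 6 for epidermis, 3 for erythroid cells and 2 each for macrophages and nerve. Epidermal markers summed to 1709 and 1687 CPM in forelimb and to 2308 and 3286 CPM in hindlimb, with a median log2 fold change of 0.43, while under the tag-sequence offset 7 of 9 were below 0 (median -0.38) and none was called (3 at an unadjusted p under 0.05). Among the erythroid markers, 2 genes were called, named here after their values were seen. Hbb-bs, a beta globin, was at 11720 and 9308 CPM in forelimb and at 4732 and 5550.3 CPM in hindlimb (-1.03, and -0.14 with the tag-sequence offset). Hba-a2, an alpha globin, was at 456 and 385 CPM in forelimb and at 2525 and 3027 CPM in hindlimb (2.72, and 0.55 with the tag-sequence offset). The median of the erythroid list was 0.27. Their part in the members' values was not tested.

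Promoters of the members were searched for a motif of NRF1, a transcription factor known to act on respiratory chain genes. The letters searched were GCGCA, any 1 base and GCGC, on both strands, in windows of 300 bases around the start site from RefSeq (GRCm38.p6), and no other motif was searched. It was in a window of 16 of the 66 members with an entry, 24.2%, beside 5.19% of 27025 genes with an entry and 11.5% of 9533 tested genes. By window it was 17 of 71, 23.9%, beside 4.60% of all windows. The 16 members belong to all 5 complexes and include Sdha, Sdhd, Uqcrc1, Atp5c1, Atp5o, Atp5g2 and Atp5g3. A match of these letters is a description of the window.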

How the data were processed

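The counts deposited by the authors are raw whole numbers per tag in 1 table, which pairs assigned tags with UniGene clusters and Ensembl genes. Per the submitters' processing notes, Bowtie and mm9 were used, with version and parameters not given in the sources used here. Counts were summed per Ensembl gene, or per cluster where no gene was given. Tags with neither, 14.8% to 18.7% of a library, stayed out. Symbols, tag matches and positions came from GENCODE M21 on GRCm38.

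Hindlimb was compared with forelimb in edgeR 4.0.16 (R 4.3.3; glmQLFit and glmQLFTest, TMM, filterByExpr, no block) over all tested genes, with Benjamini-Hochberg adjustment at 0.05; DESeq2 1.42.0 was an alternative. Log2 fold changes are hindlimb over forelimb. With 2 libraries per limb type, p-values set the limb-type difference against the variation between these samples, estimated with information shared across genes. The SE of an edgeR log2 fold change was derived from that fold change and its F value. Replicates differed beyond sampling noise (chi-square per degree of freedom 9.04 and 21.9). The scripts were tested on simulated data.

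The GC offset is a lowess per library (span 0.3) that relates the deviation of a gene in log2 CPM to the GC of its tags. The tag-sequence offset models base, position, GC and purine number over 61466 tags with at least 10 counts from 11818 genes, and explained 35.7% to 41.7% of the variation within genes. Ratios of single tags use 0.5 CPM as a prior.

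Named were the 3 members of highest mean CPM per complex, every called member up to 12 per direction, and the isoform sets. Members called only with the GC offset are named as well. The tag pairs and list genes named were chosen after their values were seen. The members, lists and offsets were chosen with earlier results of these data known. The values of 1 member are not reported here, though it enters the counts and sums.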

Additional observations from a re-analysis of the deposited data

Results flagged for a closer look

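Some tags without an assigned gene in the deposited table match a name of the rule in GENCODE M21, and their counts enter no value above. A single tag of Ndufb1-ps, a gene of complex I whose symbol carries the pseudogene suffix, had 1731 counts in all libraries together: 316 and 142 in forelimb and 575 and 698 in hindlimb. Tags of the other gene names had 693 counts, 0.267% of the counts of the members.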

How the results depend on the processing

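Results on calls are given as higher in hindlimb and higher in forelimb. Without any offset edgeR called 1314 and 971 of all genes and 12 and 10 members. DESeq2 gave 1238 and 1027 genes and 13 and 12 members. Library totals alone gave 1178 and 936 genes and 12 and 10 members. No filter on low counts gave 1412 and 1171 genes and 13 and 11 members. Tags of 1 gene gave 1210 and 814 genes and 13 and 8 members. The most abundant tag gave 1705 and 1228 genes and 14 and 13 members, and the last NlaIII site gave 12 and 8 members.

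When 1 library was left out, calls over all genes ranged from 583 to 1899 and from 367 to 2001, calls of members from 5 to 17 and from 3 to 17, and the members' median log2 fold change from 0.051 to 0.15. The highest counts came without hindlimb replicate 1 and the lowest without forelimb replicate 2. Fewer samples entered these fits, and beyond that the cause was not tested.

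Equal replicate numbers are not stated to pair the samples, and the deviations of same-numbered libraries had a correlation of -0.103. With a replicate block, 1181 and 970 genes and 10 and 9 members were called, and 18 of the 22 member calls remained. Crossing the pairing, chosen after seeing the data, gave 1684 and 1486 genes and 15 and 15 members.

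The GC offset gave 394 and 431 genes and 3 and 9 members, and together with the replicate block it gave 291 and 314 genes and 1 and 5 members. The tag-sequence offset gave 12 and 9 genes and 0 and 0 members. Offsets with a library left out were chosen after seeing the data. With the GC offset they gave, for genes and then members, 493 and 472 and 2 and 10 without forelimb replicate 1, 476 and 557 and 3 and 10 without forelimb replicate 2, 376 and 429 and 2 and 5 without hindlimb replicate 1, and 91 and 63 and 0 and 1 without hindlimb replicate 2. With the tag-sequence offset they gave 43 and 18, 4 and 2, 119 and 93, and 12 and 5 genes in the same order of libraries, and 0 and 0 members each time.

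The members' median log2 fold change, 0.09, was 0.048 with library totals alone, 0.12 without a filter, 0.0012 with tags of 1 gene, -0.18 with the most abundant tag and -0.084 with the last NlaIII site. It was -0.11 with the GC offset, with or without the replicate block, and -0.030 with the tag-sequence offset. With a library left out in the order above, it was 0.044, -0.13, -0.18 and -0.091 with the GC offset and -0.012, 0.032, -0.023 and -0.015 with the tag-sequence offset. The replicate spread of this median was 0.012 (SD, log2), which does not cover the shifts between these settings.

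Summed log2 ratios with the GC offset were -0.18 for complex I, -0.13 for complex IV, -0.12 for complex V and -0.14 for all members. With the tag-sequence offset they were -0.071 for complex II, 0.029 for complex IV and 0.053 for all members. The most abundant tag gave -0.18 for complex I, -0.13 for complex III and 0.26 for complex V. The last NlaIII site gave 0.56, -0.58 and 0.33 for complexes III, IV and V, and tags of 1 gene gave -0.12 for complex III. The cause of these shifts was not tested.

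Among called members, the direction turned with the GC offset in Ndufa8 (-0.27, with or without the replicate block) and Ndufa11 (-0.54, likewise), and Atp5o, not called without it, was called at -1.01. With the tag-sequence offset the direction of called members turned in Ndufa3 (-0.14), Ndufa11 (-0.14), Uqcrc2 (0.14), Uqcrb (0.076), Uqcr10 (-0.030), Atp5j (0.47), Atp5g1 (-0.48) and Atp5f1 (0.031). With the last site Sdha, not called over all its tags, was called at 1.60, and Uqcrc2 turned to 0.20. Members that did not pass the test also changed sign between settings. With 2 libraries per limb type, and under 1 CPM per count, members of a few CPM are measured with wide error.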
